A study of Mus musculus with 6 samples.

Results

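Plau, Plat, Plaur and Serpine2 are the urokinase and plasminogen activation genes described here, 4 of the 24063 gene symbols counted in penile tissue of mice. They were chosen by name, and each had 1 transcript row in the deposited counts. RNA was sequenced from penile tumors of SA mice (PB-Cre+ Smad4L/L ApcL/L) and from normal penile epithelium of WT C57BL/6 mice, all 5 months old, with 3 samples in each group. The tumors arose without a carcinogen. In SA mice the Cre recombinase is driven by an androgen-responsive promoter that is active in the penile epithelium, and Smad4 and Apc are deleted in the cells where it acts. The WT mice are labelled wild type, with no allele named. The strain background of the SA mice was not given in the sources used here, and genotype and background therefore cannot be told apart. Whether each WT sample came from its own mouse was not given either, and the p-values measure the spread between these samples only.

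Plasminogen is a circulating zymogen that is cut to plasmin, a broad protease that dissolves fibrin and acts on matrix proteins. Urokinase (Plau) makes this cut mainly at cell surfaces, where it is held by its receptor (Plaur), and tissue-type plasminogen activator (Plat) makes it mainly on fibrin. Serpin inhibitors stop these activators, among them protease nexin-1 (Serpine2), which blocks thrombin, urokinase and tissue-type plasminogen activator. In stratified epithelium the system is known for its part in wound closure and in the invasion of squamous carcinoma cells.

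Transcripts of the receptor and of the nexin rose most in SA tumors, the second activator rose less, and urokinase itself did not pass the test. Serpine2 rose 12.5-fold, Plaur 6.01-fold and Plat 2.67-fold, while the fold of Plau was 1.45 (95% interval 0.983 to 2.13). At an adjusted p-value under 0.01 (edgeR's quasi-likelihood test, Benjamini-Hochberg adjustment over the 16336 genes tested), 3 of the 4 genes were higher in SA tumors and 0 were lower. Of all genes tested, 20.1% were higher and 17.5% were lower by this rule. With a log2 fold change of at least 2 also required, Plaur and Serpine2 passed, and 9.41% of all genes did so in that direction. The same 3 genes had every SA tumor above every WT penis, which was true of 32.7% of all genes, and 30.7% had every SA tumor below every WT penis. The exact permutation test (two-sided) can reach no p below 0.10 with 3 against 3 samples. It gave 0.10 for these 3 genes and 0.20 for Plau.

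The gene rows of a sample held 23828283 to 32871142 counts in 5 of the libraries and 110509147 in the third SA tumor, the deepest. A count of 3 corresponded to 0.0244 to 0.137 CPM (counts per 1e+06, normalised by edgeR's TMM method), and this floor covers counting error only. Smad4 was at 39.6 ± 5.61 CPM in SA tumors compared with 67.8 ± 5.92 in WT penises (SD, n = 3 each), and Apc was at 215 ± 33.4 and 79.6 ± 15.1 CPM. These rows span whole transcripts and do not separate the deleted exons, so they do not check the deletion. All 10 keratinocyte markers listed were counted in every sample, of which 6 were lower and 4 did not pass, and their summed level was 27778 to 32035 CPM in SA tumors compared with 70058 to 78881 in WT penises. Summed neutrophil markers (7 of 8 tested were higher) were at 1470 to 2564 CPM in SA tumors compared with 69.3 to 137 in WT penises. Most of that sum came from S100a8 and S100a9, at 783 and 1049 CPM on average in SA tumors and 46.0 and 36.1 in WT penises. The tested neutrophil marker that did not pass was Itgam. Of the 10 neutrophil markers listed, Camp had too few counts to be tested and Ly6g was not among the counted symbols. General leukocyte markers (2 of 8 higher) were at 121 to 348 and 75.7 to 117 CPM, fibroblast markers (2 of 10 higher, 1 lower) at 1776 to 5599 and 6498 to 6802, and smooth muscle markers (8 of 8 lower) at 90.0 to 198 and 1646 to 2179. In such bulk tissue, fewer cells of a type and less RNA per cell cannot be told apart.

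**Figure D1:**
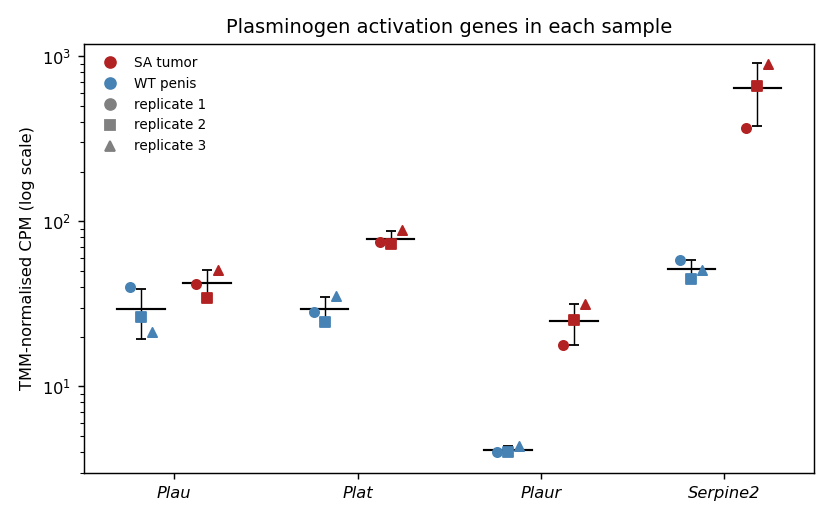
Each point is the level of a gene in 1 sample, as TMM-normalised CPM on a log axis, for SA tumors (red) and WT penises (blue). Bars give the mean and SD of 3 samples. The groups overlap for Plau only, and the SA tumors are farthest from the WT penises for Serpine2.

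Plau (NM_008873) encodes urokinase and lies on chromosome 14 of mm10 from 20836662 to 20843388. Its level was 41.7, 34.4 and 50.7 CPM in the 3 SA tumors and 40.2, 26.4 and 21.2 CPM in the 3 WT penises. The second SA tumor was below the first WT penis, so that the groups overlapped. The log2 fold change was 0.53 (SE 0.24, the standard error of the fit, adjusted p = 0.0968 by edgeR). With each sample left out in turn it ranged from 0.32 without the third WT penis to 0.82 without the first (adjusted p = 0.287 and 0.0121). The scaling also mattered. With library totals alone in place of TMM, the log2 fold change of Plau was 0.83 (adjusted p = 0.0163), and the median over all genes tested moved from 0.03 to 0.31. That scaling raised the share of genes higher in SA tumors among those past the adjusted p-value from 53.4% to 74.4%. Plau was thus not called under any setting tried, and its interval includes a change of about 2-fold as well as none.

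Plat (NM_008872), the gene of tissue-type plasminogen activator, lies on chromosome 8 from 22757722 to 22782848. It was at 74.8, 72.4 and 88.0 CPM in SA tumors and at 28.3, 24.7 and 35.3 CPM in WT penises. The lowest SA tumor held more than 2 times the level of the highest WT penis. The log2 fold change of 1.42 (SE 0.15, adjusted p = 0.000104 by edgeR) had the smallest SE of the 4 genes and was below the fold threshold. Endothelial cells are a known source of this activator, and the levels of 10 endothelial markers are given beside it. Of these markers 0 were higher and 4 were lower, beside 20.1% higher and 17.5% lower over all genes tested. Their summed level was 238 to 411 CPM in SA tumors compared with 441 to 521 in WT penises. With single samples left out, the call of Emcn held in 6 of 6 fits, those of Tie1 and Erg in 3 and that of Pecam1 in 2. Tie1, Erg and Pecam1 also lost their calls with library totals alone. The part of endothelial cells in the level of Plat was not tested.

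Plaur (NM_011113), on chromosome 7 from 24460937 to 24475970, encodes the urokinase receptor, a protein that a lipid anchor tethers to the cell surface. It was counted 477, 758 and 3880 times in the SA tumors and 89, 120 and 96 times in the WT penises, which gives 17.7, 25.1 and 31.5 against 4.02, 4.01 and 4.37 CPM. The WT penises were nearly level with each other (4.13 ± 0.208 CPM, SD, n = 3), whereas the SA tumors varied (24.8 ± 6.90 CPM, SD, n = 3) and all stood above them. The log2 fold change was 2.59 (SE 0.22, adjusted p = 3.34e-05 by edgeR), and leaving out single samples moved it to 2.37 at the lowest and 2.77 at the highest. Neutrophils and macrophages are known to carry the receptor. Neutrophil markers were higher in the SA tumors, as given above, and macrophage markers, of which 1 of 9 was higher and 2 were lower, were at 269 to 473 CPM in SA tumors compared with 304 to 392 in WT penises. Their part in the level of Plaur was not tested.

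The 250 bases before a transcript start of Plaur are shown because that gene and Serpine2 were the pair past both thresholds, and RefSeq's promoter table for GRCm38.p6, the assembly of mm10, held an entry for these 2 of the 4 genes. Capitals mark matches on either strand to an AP-1 element (TGANTCA) or a GC box (GGGCGG), where overlapping matches run together. The stretch is chr7:24462233-24462482 on the plus strand and ends at the start that the promoter table uses. That start lies inside the gene span given above, whose first base is farther upstream.
Plaur: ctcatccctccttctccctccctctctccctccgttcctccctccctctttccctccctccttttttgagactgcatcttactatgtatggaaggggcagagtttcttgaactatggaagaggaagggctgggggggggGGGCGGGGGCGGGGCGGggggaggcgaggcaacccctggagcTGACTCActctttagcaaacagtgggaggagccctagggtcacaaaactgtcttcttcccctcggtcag
It held 1 AP-1 match, whose first base was 69 bases before that start, and 3 GC boxes. An AP-1 match was present in 6.75% of the 32851 stretches of this length in the table and a GC box in 32.7%. It held 0 matches to CTTTGAT, the letters bound by TCF/LEF factors (3.21% of all stretches), and 0 to GTCTAGAC, a Smad-binding palindrome (0.167%). A motif of the NF-kappaB type had 2 overlapping matches and was present in 45.8% of all stretches. A match describes letters, not a bound site.

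Serpine2 (NM_009255), the gene of protease nexin-1, lies on chromosome 1 from 79794317 to 79858665. It was at 369, 662 and 891 CPM in SA tumors and at 58.0, 44.4 and 50.8 CPM in WT penises. The lowest tumor held more than 6 times the level of the highest WT penis. The log2 fold change was 3.65 (SE 0.33, adjusted p = 8.98e-05 by edgeR), the 800th largest increase among the 16336 genes tested. It ranged from 3.34 without the third SA tumor to 3.92 without the first. The 3 tumors had the same order in Serpine2 and Plaur, with the first lowest and the third highest. The summed fibroblast markers had this order too (1776, 4471 and 5599 CPM), as did the general leukocyte markers (121, 215 and 348 CPM). The order was not particular to these lists. The sums of endothelial, smooth muscle, macrophage, Schwann cell and blood and platelet markers also had it, and those of keratinocyte and neutrophil markers did not. The sum of the fibroblast markers was lower in every SA tumor than in every WT penis, while single markers went both ways. Fbln1 and Thy1 were higher and Dcn was lower at the adjusted p-value, and 7 did not pass. The call of Fbln1 held in 6 of 6 fits with a sample left out, that of Dcn in 3 and that of Thy1 in 2. The part of any of these cell types in the spread between tumors was not tested.

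The matching stretch of Serpine2, on the minus strand at chr1:79858666-79858915, is printed with the same motifs in capitals, to set a promoter without the AP-1 letters beside that of Plaur.
Serpine2: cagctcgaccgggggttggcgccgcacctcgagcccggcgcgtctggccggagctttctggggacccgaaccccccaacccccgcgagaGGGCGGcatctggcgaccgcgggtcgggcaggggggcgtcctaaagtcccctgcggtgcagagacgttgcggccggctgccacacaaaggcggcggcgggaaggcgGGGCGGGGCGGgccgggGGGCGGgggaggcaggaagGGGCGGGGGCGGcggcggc
It held 6 GC boxes and 0 AP-1 matches, and its GC content was 78.8%, against 59.6% before Plaur and a median of 52.4% over the table. The TCF/LEF and Smad letters had 0 matches here as well, and the NF-kappaB motif had 2.

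Levels of different genes were compared per transcript length, using the TPM values that the authors deposited. In WT penises Serpine2 was highest at 34.0 ± 3.34 TPM, followed by Plau at 16.9 ± 4.56, Plat at 16.0 ± 3.58 and Plaur at 4.07 ± 0.420 (SD, n = 3 each). The order of Plau and Plat differed between WT penises, with Plau higher in the first and second and Plat higher in the third. In SA tumors Serpine2 was at 554 ± 235 TPM, Plat at 55.0 ± 7.49, Plau at 32.1 ± 7.15 and Plaur at 31.5 ± 9.26 (SD, n = 3 each). Here Plat was above Plau in each sample, and Plau and Plaur overlapped. Serpine2 ranked 107th to 275th of 24063 genes by TPM in the SA tumors and 3058th to 3904th in the WT penises.

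The balance between the genes can be read within a sample, where no scaling between libraries enters. Per length there were 5.95, 3.93 and 2.89 transcripts of Plau for each transcript of Plaur in the WT penises, and 1.40, 0.817 and 0.958 in the SA tumors. The groups did not overlap in this ratio, and the receptor reached the level of its ligand in the tumors. For each transcript of Serpine2 there were 0.607, 0.522 and 0.366 of Plau in the WT penises and 0.0991, 0.0456 and 0.0498 in the SA tumors. The ratio of Plat to Serpine2 was 0.470 ± 0.0859 in WT penises and 0.111 ± 0.0464 in SA tumors (SD, n = 3 each). The ratio of Plau to Plat was 1.54, 1.16 and 0.650 in WT penises and 0.603, 0.514 and 0.622 in SA tumors, so that the third WT penis lay only just above the tumors. These ratios are descriptions and were not tested. On the TPM scale, Plau was at 31.9, 25.1 and 39.4 in SA tumors and 22.0, 15.7 and 13.1 in WT penises, which do not overlap. On the TMM scale the groups overlapped, as given above.

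**Figure D2:**
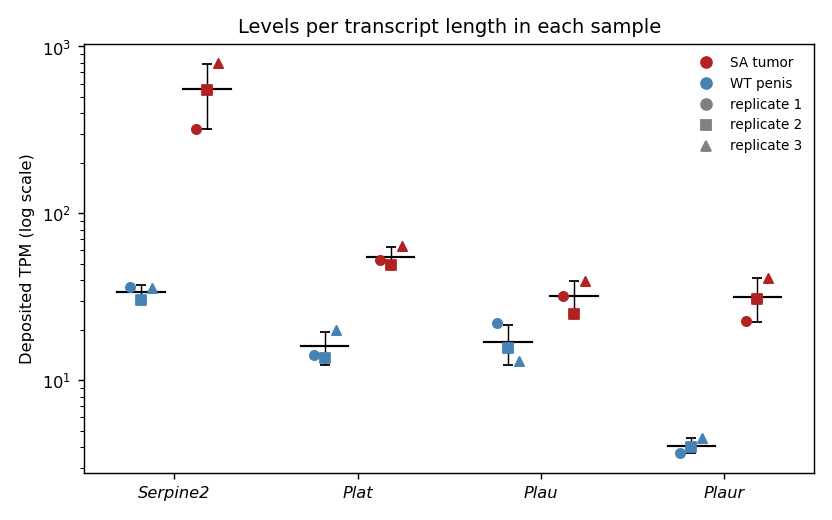
Deposited TPM of each gene in each sample, on a log axis, with the mean and SD of 3 samples. In WT penises (blue) Plaur lies below the other genes, and in SA tumors (red) it overlaps with Plau while Serpine2 stands above the other 3 genes.

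The other genes of the system were taken from a list of 35, of which 27 had enough counts to be tested. In SA tumors 6 were higher and 7 were lower at the adjusted p-value, and 14 did not pass. The shares over all genes tested were 20.1% higher and 17.5% lower. The median log2 fold change of the 27 genes was 0.25, against 0.03 over all genes tested. Past both thresholds 5 were higher (Hpn, Serpini1, Cpb2, Fn1 and F2) and 2 were lower (F3 and Vtn). By that rule 9.41% of all genes were higher and 3.59% were lower. The number higher at the adjusted p-value was 10 without the first SA tumor. The number lower was 4 without the first or the second WT penis, and the number lower past both thresholds was 1 without the second SA tumor or the first WT penis. With library totals alone, 4 genes were lower.

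Plasminogen itself, Plg, had 2, 0 and 4 counts in the SA tumors, compared with 0 in each WT penis, and was not tested. Of the 4 tested genes for proteins that hold plasminogen at cell surfaces, 3 were lower and 1 did not pass. The share lower over all genes tested was 17.5%. Anxa2 and S100a10, which form the annexin A2 heterotetramer that binds plasminogen and tissue-type activator, fell by 1.31 and 1.27 on the log2 scale (adjusted p = 8.62e-05 and 3.06e-05 by edgeR). Anxa2 was at 724 ± 77.5 CPM in SA tumors compared with 1790 ± 208 in WT penises (SD, n = 3 each). No SA tumor reached the lowest WT penis in either gene, which was true of 30.7% of all genes tested. Plgrkt, a membrane receptor for plasminogen, fell by 0.61 on the log2 scale (adjusted p = 0.00332), and this call was lost with library totals alone (adjusted p = 0.0497) and without any 1 of the 3 WT penises. Eno1, an enolase that also binds plasminogen, had a log2 fold change of 0.49 (adjusted p = 0.118).

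Both tested proteases that can activate the system were higher, beside 20.1% of all genes tested. St14 encodes matriptase, an epithelial membrane protease that cleaves single-chain urokinase. It was at 294, 307 and 208 CPM in SA tumors compared with 155, 144 and 133 in WT penises, a log2 fold change of 0.90 (SE 0.15, adjusted p = 0.00135 by edgeR). Hpn, which encodes the related membrane protease hepsin, rose from 0.885 ± 0.159 to 6.43 ± 0.623 CPM (SD, n = 3 each), with a log2 fold change of 2.84 (adjusted p = 3.01e-05). Neither gene overlapped between the groups, and 32.7% of all genes tested had every SA tumor above every WT penis. Klkb1 and F12, whose products are made mainly in the liver, had too few counts to be tested.

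Among the 6 inhibitors tested, 2 were higher, 2 were lower and 2 did not pass, beside 20.1% higher and 17.5% lower over all genes. Serpini1, the gene of neuroserpin, an inhibitor of tissue-type activator, rose from 0.552 ± 0.0938 to 7.16 ± 1.09 CPM (SD, n = 3 each), with a log2 fold change of 3.68 (adjusted p = 1.29e-05 by edgeR). Cpb2, which encodes a carboxypeptidase that removes plasmin-binding sites from fibrin, had 254, 244 and 354 counts in the SA tumors, against 0, 2 and 0 in the WT penises. The ratio of its pooled, normalised counts was 175, with an exact 95% interval of 48.3 to 1447 that covers counting error only.

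Other inhibitors were lower or did not pass. Serpinb2, a clade B serpin that inhibits urokinase, fell by 0.84 on the log2 scale (adjusted p = 0.00438 by edgeR), from 181 ± 29.2 to 102 ± 23.0 CPM (SD, n = 3 each). With single samples left out, this call held in 2 of 6 fits, those without the first SA tumor or the first WT penis, and was lost with library totals alone (adjusted p = 0.0311). Spint2, an inhibitor of matriptase and hepsin, fell by 0.66 (adjusted p = 0.00459), a call that was lost with library totals alone (adjusted p = 0.0394) and without the first or the second WT penis. Spint1, its relative, had a log2 fold change of -0.28 (adjusted p = 0.0733) that turned positive with library totals alone. A2m, a broad protease inhibitor, had a log2 fold change of 2.74 (adjusted p = 0.0170), and it was called by DESeq2 (adjusted p = 0.00143) and without the first SA tumor.

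Per length, Serpinb2 was more abundant than Serpine2 in WT penises, at 126 TPM on average against 34.0, and each WT penis held 2.75 to 4.31 transcripts of Serpinb2 for each of Serpine2. In SA tumors the order was turned, with 0.106 to 0.357. On the TPM scale Serpinb2 itself overlapped between the groups, at 73.4 to 115 in SA tumors and 99.4 to 154 in WT penises.

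**Figure D3:**
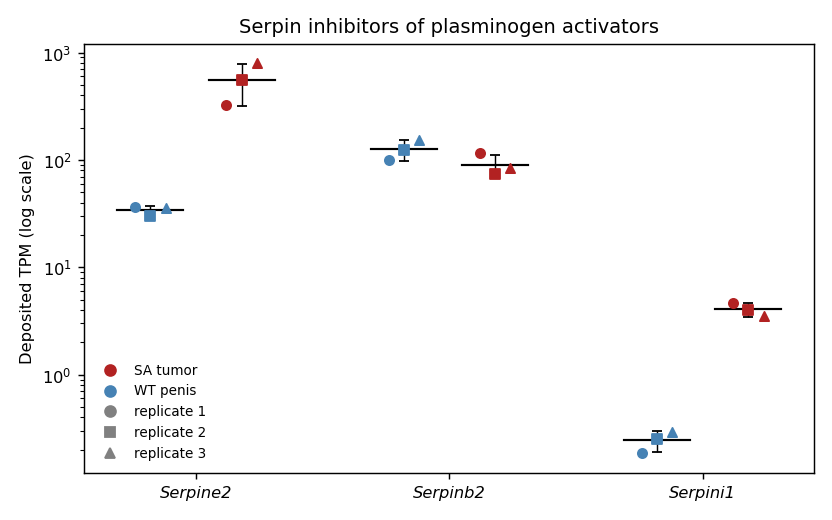
Deposited TPM, on a log axis, of the serpin genes Serpine2, Serpinb2 and Serpini1 in each sample, with the mean and SD of 3 samples. Serpinb2 lies above Serpine2 in the WT penises (blue), and Serpine2 lies above Serpinb2 in the SA tumors (red).

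Of the 10 genes for clearance receptors and for matrix or membrane partners, 1 passed the test, beside 37.6% of all genes tested. Vtn, the gene of vitronectin, a matrix protein that binds the urokinase receptor, was lower. It had 0, 5 and 38 counts in the SA tumors, compared with 44, 49 and 39 in the WT penises, a log2 fold change of -3.16 (SE 0.59, adjusted p = 0.00226 by edgeR), and the call was lost without the second SA tumor or the first WT penis. Lrp1, which takes up complexes of protease and inhibitor, was at 549 ± 184 CPM in SA tumors compared with 569 ± 63.1 in WT penises (SD, n = 3 each), and its log2 fold change of -0.05 had a 95% interval of -0.57 to 0.47. The sign of Lrp1 turned with library totals alone and without the first SA tumor. Itgam and Itgb2, the chains of the leukocyte integrin that pairs with the receptor, had log2 fold changes of 1.19 and 1.58 (adjusted p = 0.0304 and 0.0135), and each was called by DESeq2 and without the first SA tumor, Itgb2 also with library totals alone. Mrc2, Vldlr, Itgav, Itgb1, Itgb3 and Lrpap1 had log2 fold changes from -0.42 to 0.42.

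Among substrates and clotting genes, Fn1, the gene of fibronectin, rose from 154 ± 19.4 to 729 ± 330 CPM (SD, n = 3 each), with a log2 fold change of 2.24 (SE 0.31, adjusted p = 0.000800 by edgeR). Like Serpine2 it was lowest in the first SA tumor (455 CPM) and highest in the third (1096 CPM). F3, the gene of tissue factor, which starts clotting, moved the other way and fell by 2.69 on the log2 scale (SE 0.15, adjusted p = 3.83e-06), from 132 ± 12.3 to 20.4 ± 3.55 CPM (SD, n = 3 each). F2, the gene of prothrombin, had 185 counts over the SA tumors and 2 over the WT penises, a ratio of 38.0 with an exact 95% interval of 10.4 to 316 that covers counting error only. The fibrinogen genes Fga, Fgb and Fgg had too few counts to be tested. Hgf and F2r had log2 fold changes of 1.17 and 0.25 (adjusted p = 0.107 and 0.101).

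**Figure D4:**
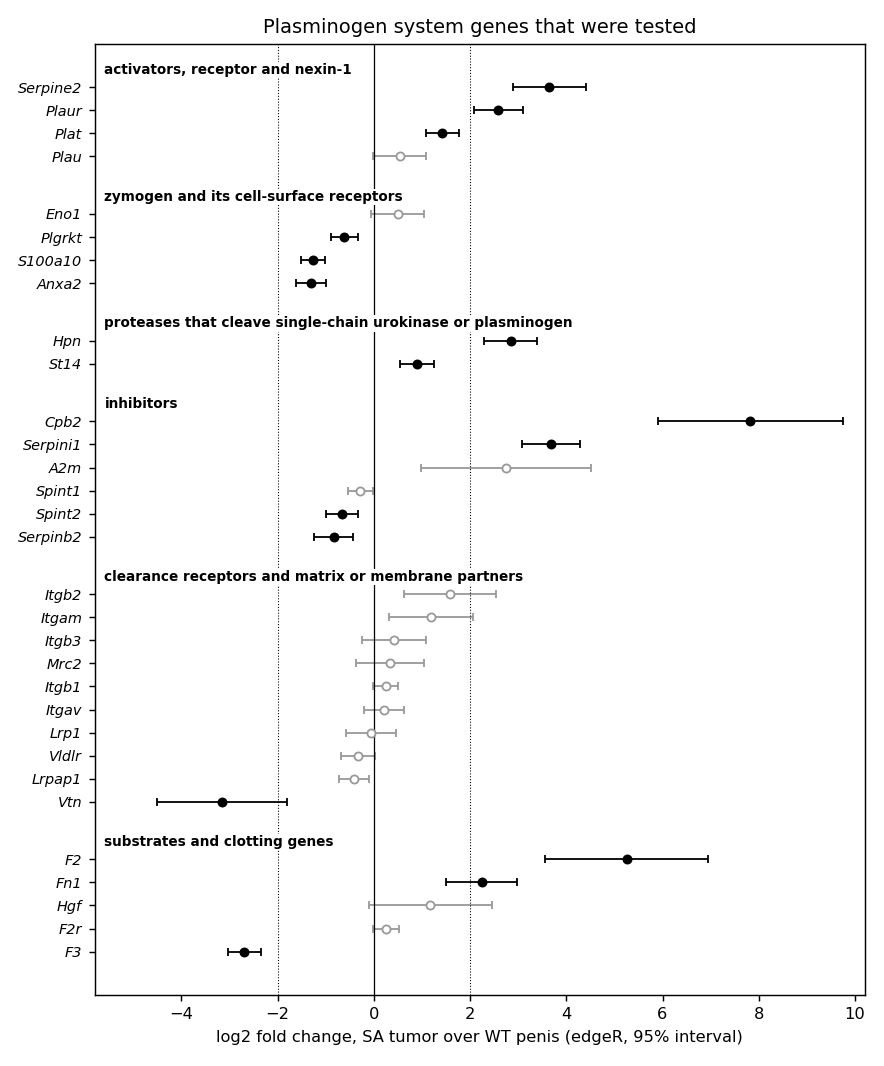
Log2 fold change of SA tumors over WT penises with its 95% interval for the 4 activation genes and the 27 other genes of the system that were tested, in groups by role. Filled black points have an adjusted p-value under 0.01, open grey points do not, and dotted lines mark a log2 fold change of 2 in either direction. The WT penises held 2 counts each of Cpb2 and F2, whose intervals are wide.

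Plaur belongs to the Ly6/uPAR family of small proteins with a three-finger fold, and its relatives went both ways. Of 25 relatives listed, 24 were counted and 23 were tested. At the adjusted p-value 6 were higher, 10 were lower and 7 did not pass. The number lower was 7 to 10 with 1 sample left out and 7 to 11 under the other alternatives. Over all genes tested, 20.1% were higher and 17.5% were lower. The relatives had a median log2 fold change of -0.29. Cd177, a neutrophil surface protein, had 71, 233 and 1485 counts in the SA tumors, compared with 1, 0 and 0 in the WT penises, a ratio of 735 with an exact 95% interval of 132 to 29037 that covers counting error only and rests on 1 WT count. Lypd1, Ly6h and Gpihbp1 also passed both thresholds, with log2 fold changes of 3.04, 3.80 and 2.28. Relatives known from differentiating epithelium were among those lower. Ly6g6c fell by 2.53 and Slurp1 by 1.91 on the log2 scale (adjusted p = 4.49e-06 and 0.000158 by edgeR). Lypd8 fell by 6.87, from 113 ± 48.5 to 0.793 ± 0.615 CPM (SD, n = 3 each). Reads can be shared between close copies such as Ly6c1 and Ly6c2.

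Several relatives lie beside Plaur on chromosome 7. Within 250 kb of either end of the gene, with distances negative toward lower coordinates, 19 other genes were tested. Of these 2 were higher, 5 were lower and 12 did not pass, against 20.1% higher and 17.5% lower over all genes tested. Lypd5, a skin relative, at -107 kb fell by 1.87 on the log2 scale, Pinlyp at 65.7 kb by 0.90, and Lypd3, a receptor homolog of upper epidermal layers, at 160.6 kb by 1.12 (adjusted p = 1.89e-05, 0.00300 and 7.52e-05 by edgeR). Pinlyp lost its call with library totals alone and without the first WT penis. The others past the adjusted p-value, named after their values were seen, were Zfp428 and Zfp575, with log2 fold changes of 2.06 and 1.07, and Ethe1 and Phldb3, which fell by 1.00 and 2.09. The nearest gene tested, Cadm4 at 6.1 kb, had a log2 fold change of 0.26 (adjusted p = 0.0571).

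**Figure D5:**
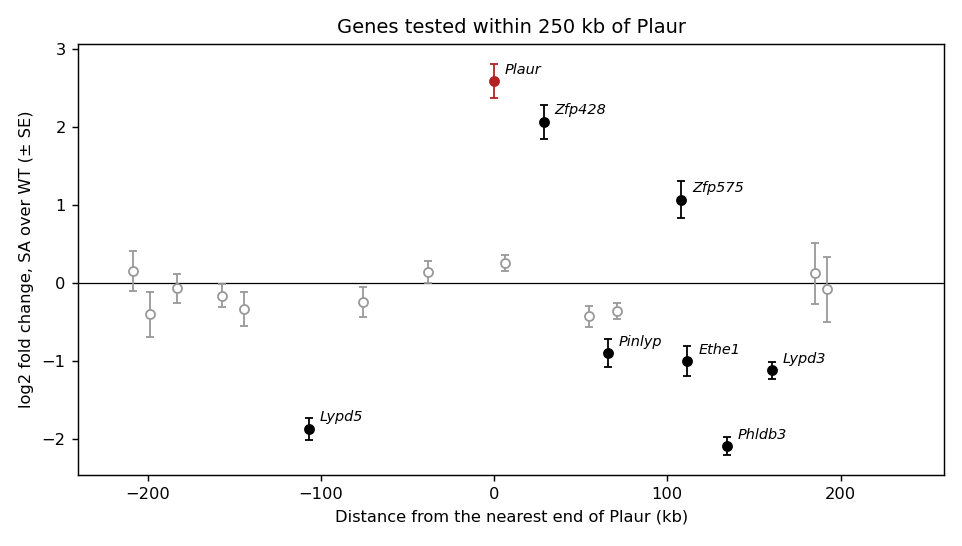
Log2 fold change of SA tumors over WT penises, with its standard error, for the 19 other genes tested within 250 kb of Plaur and for Plaur at 0 (red), by distance in kb. Filled points have an adjusted p-value under 0.01. Plaur has the highest value of these 20 genes. Its relatives Lypd5, Pinlyp and Lypd3 lie below 0, and its relative Tex101, an open point, lies near 0.

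The other 3 genes were looked at in the same window, again beside 20.1% higher and 17.5% lower over all genes tested. Near Plau, 12 genes were tested, of which 0 were higher and 3 were lower (Usp54, Synpo2l and Adk). Near Plat, 4 of 9 were higher (Slc20a2, Vdac3, Dkk4 and Ap3m2) and 1, Polb, was lower. Dkk4, a secreted Wnt inhibitor at -129.7 kb from Plat, had a log2 fold change of 8.88. Near Serpine2, 3 genes were tested, and Wdfy1 at -18.2 kb was higher by 1.03 on the log2 scale (adjusted p = 0.00101 by edgeR), Mrpl44 was lower and Ap1s3 did not pass. Wdfy1 is known to differ in expression between inbred mouse strains, and at this locus strain background and genotype cannot be told apart. These neighbours were named after their values were seen. No annotated RefSeq gene overlaps any of the 4 genes.

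Genes with the most similar pattern were ranked by the root mean square difference in log2 CPM over the 6 samples, after removal of each gene's mean, among the 14946 genes that averaged 1 CPM or more. For Plau they were Sgol1, Mttp and Alyref2 (differences 0.092 to 0.12). For Plat they were Adamts6, Slc39a14 and Tstd3 (0.091 to 0.094), with log2 fold changes of 1.39 to 1.47. For Plaur they were Tmem173, which encodes the DNA-sensing adaptor STING, Trpc6 and Plcb2 (0.11 to 0.15), and Tmem173 rose from 5.62 ± 0.581 to 31.9 ± 5.41 CPM (SD, n = 3 each). For Serpine2 they were Slc15a3, Gp49a and Frzb (0.24 to 0.26), the last a secreted Wnt antagonist. Serpine2 differed from Plaur by 0.55, Plaur from Plat by 0.60 and Plat from Plau by 0.57. These differences were larger than those to the 3 most similar genes. Since those were picked as the nearest of 14946 genes, the comparison cannot show whether the 4 genes differ in pattern.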

How the data were processed

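Stranded paired-end RNA sequencing libraries of 3 SA tumors and 3 WT penises were used. Per the submitters' processing notes, FastQC, TopHat (against mm10) and HTSeq were used by the authors for quality checks, alignment and counting (versions, and whether strand was used in counting, are not given in the sources used here). The deposited values are raw counts per RefSeq transcript, with FPKM and TPM that the authors derived from these counts. FPKM was used here only to recover transcript lengths, and TPM to compare levels between genes. Since transcripts of a gene share reads, the row with the highest mean count stood for each symbol.

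The count analysis used edgeR 4.0.16 under R 4.3.3. Low genes were removed by filterByExpr (minimum count 10, total 15), scaled by TMM and fitted by robust quasi-likelihood with Benjamini-Hochberg adjustment over 16336 genes. The standard error is the log2 fold change over the square root of F. Thresholds were an adjusted p-value under 0.01 and, as in the study, a log2 fold change of at least 2. Methods were tested on simulated data. Alternatives were DESeq2 1.42.0, limma-voom (limma 3.58.1), other scalings, no filter, other rows per gene, a replicate block and each sample left out.

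Members, gene lists and tests were chosen with earlier results of these data known. Genes are named if they are members, are in the lists, are Smad4 or Apc, or are the 3 most similar to a member. Neighbouring genes outside these sets were named after their values were seen. Schwann cell markers (2 of 8 higher, 5 lower) and blood and platelet markers (1 of 8 higher) were also listed. A gene of the plasminogen system list is not reported here and was left out of the counts over that list.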

Additional observations from a re-analysis of the deposited data

How the results depend on the processing

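Plat, Plaur and Serpine2 stayed higher at the adjusted p-value under all 8 alternatives and in all 6 fits that each left out a sample, Plaur and Serpine2 also past the fold threshold, and Plau passed in 0 of these fits. Plau ranged from 0.32 to 0.82 on the log2 scale without 1 sample and from 0.52 to 0.83 under the other alternatives. Library totals alone moved the genes higher at the adjusted p-value from 3283 to 5248 and those lower from 2865 to 1806, and left 4 plasminogen system genes lower in place of 7. That scaling shifts all fold changes together. Leaving out 1 sample gave 6 to 10 plasminogen system genes higher, 4 to 8 lower and 1 to 2 lower past both thresholds.

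The replicate numbers do not come from shared animals, and samples with the same number had residual correlations of -0.13, -0.10 and 0.02 across genes, so they were not treated as pairs. With the replicate block the log2 fold changes were 0.56 for Plau, 1.42 for Plat, 2.55 for Plaur and 3.57 for Serpine2, with no call changed. The block gave 7 plasminogen system genes higher and 6 lower. It added A2m (adjusted p = 0.00406) and lost Serpinb2 (adjusted p = 0.0104). Depth limits statements on Plg, Klkb1, F12 and the fibrinogen genes, whose counts were near the floor.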
